A study of Drosophila melanogaster with 18 samples.

Results

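The 2 groups compared were Kc cells depleted of CTCF together with CP190 (CTCF+CP190) and Kc cells depleted of SuHw together with CP190 (SuHw+CP190). Both groups share the CP190 knockdown, so the comparison asks how loss of CTCF differs from loss of SuHw when CP190 is depleted too. The arrays were chosen by title, which gave 4 of the 18 arrays of the series, 2 per group, and every one of the 16637 transcript rows was compared. Kc is a Drosophila melanogaster line of embryonic origin. Its cells were given double-stranded RNA each day for 3 days and were collected on day 4. Total RNA was reverse transcribed, labelled with Cy3 and hybridised to 1-colour NimbleGen expression arrays. The design text describes the replicates of a group as independent experiments. Other groups used here, with 2 arrays each, were BEAF+CP190 and BEAF+CTCF (double knockdowns), CTCF and SuHw (single knockdowns), and control cells that received double-stranded RNA against beta-galactosidase. The BEAF and CP190 single knockdowns, also 2 arrays each, entered the fit and the mean signals.

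CTCF and Su(Hw), written SuHw in the labels, are zinc finger proteins that bind DNA at chromatin insulators, elements that limit contact between enhancers and promoters and mark borders between chromatin domains. CP190 is a BTB domain protein that these factors bring to insulators and that takes part in their activity. In Drosophila, CTCF is known for its sites at the borders of the bithorax complex. Su(Hw) is known for the gypsy insulator and for repressing neuronal genes in the ovary. BEAF is a further DNA-binding insulator protein, found mostly near the starts of active genes.

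Values are log2 signals, and a difference of 1 is 2-fold in signal. Medians of the 4 arrays lay between 9.28 and 9.31. Across transcripts, the replicates correlated at 0.9989 in each of the CTCF+CP190 and SuHw+CP190 groups, and arrays of different groups at 0.9961 to 0.9973. Replicates spread by 0.11 in CTCF+CP190 arrays and by 0.117 in SuHw+CP190 arrays (SD as its root mean square over transcripts, n = 2 each). For the median transcript the 95% interval of the difference reached 0.185 either way, which is 1.14-fold. The targeted genes and the markers of Kc and other cell types could not be matched to rows, so neither the knockdowns nor the cell type were checked here. All but 14 named genes appear by FlyBase transcript identifier, and several identifiers may belong to 1 gene.

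Loss of CTCF and loss of SuHw gave different RNA levels at a small share of transcripts, and the larger differences were mostly lower signals in CTCF+CP190 cells. A transcript was called when its limma p, adjusted by Benjamini-Hochberg over all rows, was under 0.05. In CTCF+CP190 arrays 336 transcripts (2.02% of those tested) were higher than in SuHw+CP190 arrays and 556 (3.34%) were lower. By at least 2-fold, 25 (0.15%) were higher and 114 (0.685%) were lower, or 139 (0.835%) in all. By at least 4-fold the counts were 9 and 26, and by at least 8-fold 1 and 8. The median called difference was 0.51 on the log2 scale, or 1.42-fold. Each of the 892 called transcripts (5.36%) had both arrays of 1 group beyond both arrays of the other. But so did 43.6% of all transcripts, and 2 arrays a group can separate without a true difference. Calls numbered 474 without CTCF+CP190 replicate 1, 591 without CTCF+CP190 replicate 2, 516 without SuHw+CP190 replicate 1, 777 without SuHw+CP190 replicate 2 and 477 with only these 4 arrays in the fit. Of the 139 that differed by at least 2-fold, 136 to 139 kept their call and direction when any 1 of the 4 arrays was left out. In RNA of whole cultures, less RNA per cell and fewer cells with the transcript cannot be told apart.

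**Figure D1:**
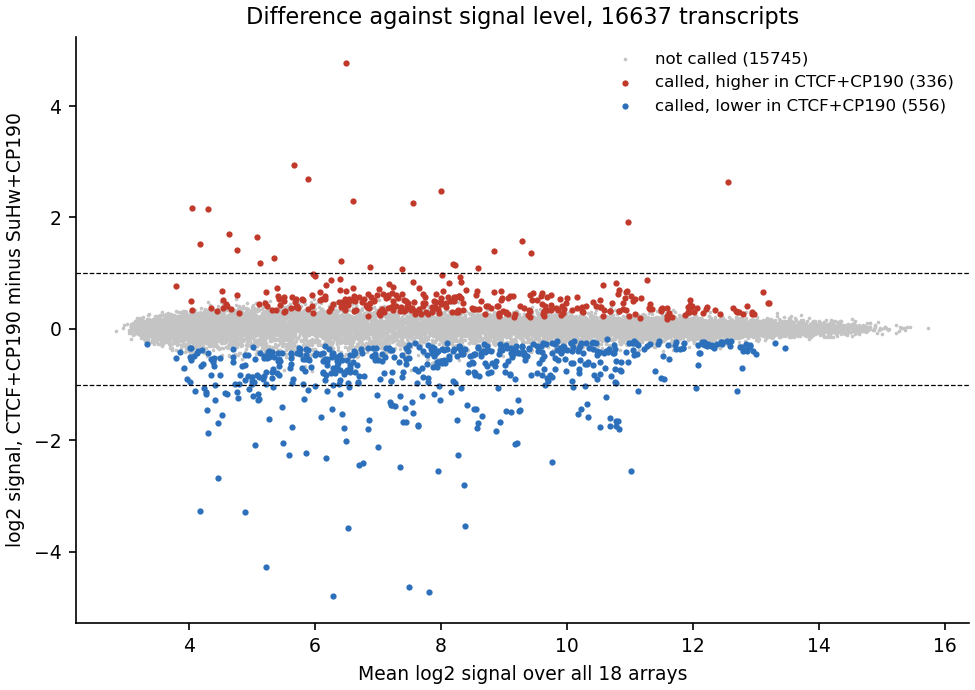
Each point is 1 transcript, placed by its mean log2 signal over all 18 arrays (x axis) and by the log2 difference, CTCF+CP190 minus SuHw+CP190 (y axis). The dashed lines mark 2-fold, with 25 called transcripts on or above the upper and 114 on or below the lower one.

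FBtr0085456 was the transcript with the largest higher signal. Its log2 signals were 9.58 and 9.55 in CTCF+CP190 arrays, against 4.78 and 4.81 in SuHw+CP190 arrays. That is a 27.2-fold difference (log2 difference 4.77, SE 0.077, limma adjusted p = 6.7e-13). Low signals were not limited to the SuHw+CP190 cells, since BEAF+CP190 arrays were at 5.09 and 5.17 and control arrays at 4.53 and 4.57. FBtr0085462, the next by size, had 7.64 and 7.37 in CTCF+CP190 arrays and 4.45 and 4.66 in SuHw+CP190 arrays, a 7.71-fold difference (log2 difference 2.95, SE 0.15, limma adjusted p = 3.9e-08). Its levels in BEAF+CP190 arrays were 4.78 and 4.84, close to those of the SuHw+CP190 arrays. For both transcripts the CTCF+CP190 arrays thus stood above all the others with CP190 knockdown in the second set of arrays, described below.

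The largest lower signals belonged to FBtr0077686 and FBtr0088597. FBtr0077686 was at 5.63 and 6.13 in CTCF+CP190 arrays, against 10.73 and 10.63 in SuHw+CP190 arrays, a 27.9-fold lower signal (log2 difference -4.80, SE 0.14, limma adjusted p = 1.1e-10). BEAF+CP190 arrays were at 5.71 and 5.66, on the side of the CTCF+CP190 arrays. FBtr0088597 had 6.56 and 6.89 in CTCF+CP190 arrays and 11.50 and 11.40 in SuHw+CP190 arrays, a 26.4-fold lower signal (log2 difference -4.72, SE 0.13, limma adjusted p = 9.1e-11). Here too the BEAF+CP190 arrays, at 7.03 and 7.28, lay near the CTCF+CP190 arrays and far from the SuHw+CP190 arrays. Control arrays were at 4.50 and 4.62 for FBtr0077686 and at 6.48 and 6.21 for FBtr0088597. The control, BEAF and CP190 arrays form a set of 6 that names its cell line in another way than the other 12 arrays, the second set. Knockdown effects between the sets cannot be told apart from that difference.

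Among transcripts whose mean signal lay above that of the median transcript, the differences were smaller but still reached 6-fold. FBtr0076878 had log2 signals of 14.33 and 14.21 in CTCF+CP190 arrays and 11.72 and 11.55 in SuHw+CP190 arrays, a 6.2-fold higher signal (log2 difference 2.63, SE 0.16, limma adjusted p = 1.4e-07). FBtr0086519 was at 10.86 and 10.91 in CTCF+CP190 arrays and at 9.03 and 8.91 in SuHw+CP190 arrays, a 3.76-fold higher signal (log2 difference 1.91, SE 0.066, limma adjusted p = 8.5e-10). The BEAF+CP190 arrays placed these 2 apart. At 12.20 and 12.33 for FBtr0076878 they lay nearer to the SuHw+CP190 arrays, and at 10.95 and 10.92 for FBtr0086519 beside the CTCF+CP190 arrays. Lower among bright transcripts was FBtr0071502, at 10.75 and 10.84 in CTCF+CP190 arrays against 13.34 and 13.36 in SuHw+CP190 arrays, a 5.88-fold lower signal (log2 difference -2.56, SE 0.074, limma adjusted p = 1.3e-10). FBtr0081770 had 8.96 and 9.20 in CTCF+CP190 arrays and 11.49 and 11.47 in SuHw+CP190 arrays, a 5.25-fold lower signal (log2 difference -2.39, SE 0.093). In BEAF+CP190 arrays FBtr0071502 was at 9.97 and 9.94 and FBtr0081770 at 9.29 and 9.18, so the SuHw+CP190 arrays were the high ones in both cases.

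**Figure D2:**
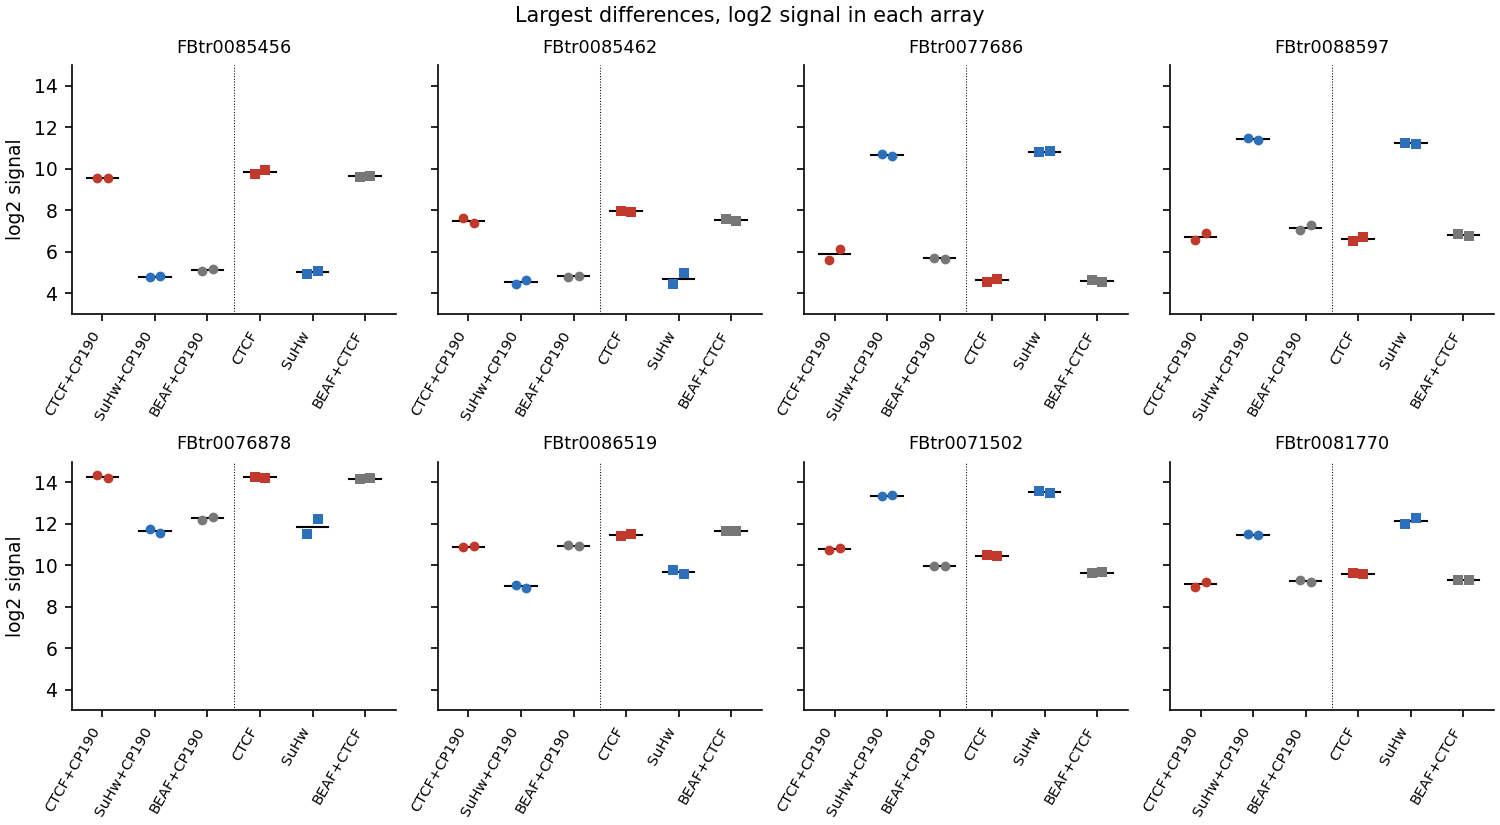
Log2 signal (y axis) of the 4 transcripts with the largest differences (upper row) and the 4 largest among bright transcripts (lower row). Points are arrays, 2 per group, bars are group means, and the dotted line parts groups with CP190 knockdown (circles) from groups without (squares). Groups with CTCF knockdown are high together for FBtr0085456, FBtr0085462 and FBtr0076878, and both SuHw knockdown groups are high for FBtr0077686, FBtr0088597, FBtr0071502 and FBtr0081770.

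Large differences were mainly found in the lower part of the signal range. With all transcripts ranked by mean signal and divided into 4 equal parts, 8 of the 25 that were higher in CTCF+CP190 arrays by at least 2-fold lay in the lowest part, 13 in the second, 3 in the third and 1 in the brightest. The 114 lower transcripts divided as 26, 68, 18 and 2. The 3 in the brightest part, named after their values were seen, were FBtr0076878 on the higher side and FBtr0078101 and FBtr0082945 on the lower side. FBtr0078101 was at 11.40 and 11.37 in CTCF+CP190 arrays and 12.47 and 12.44 in SuHw+CP190 arrays (log2 difference -1.07, SE 0.076). FBtr0082945 was at 12.62 and 12.77 in CTCF+CP190 arrays and 13.69 and 13.92 in SuHw+CP190 arrays (log2 difference -1.11, SE 0.084). Of the 114, 31 had a CTCF+CP190 mean below 5.41, the lower quartile of signals in these arrays, while 43 had a SuHw+CP190 mean above the median signal of 9.29. Of the 25, 11 had a SuHw+CP190 mean below that lower quartile. Against all signals, the 31 were near the share that lies below a lower quartile, and the 11 exceeded it. The 43 fell short of the share that lies above a median. No detection call came with the values, so background may make up part of such low signals, and the fold in RNA may be larger than the fold in signal.

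The third double knockdown that includes CP190, BEAF+CP190, showed which group stood out. In the 114 transcripts that were at least 2-fold lower in CTCF+CP190 arrays than in SuHw+CP190 arrays, it was mostly the SuHw+CP190 arrays that were high. CTCF+CP190 arrays were below BEAF+CP190 arrays at 27 of the 114 (2.98% of all transcripts were called that way), 7 of them by at least 2-fold (0.0781% of all), and above at 8, with a median log2 difference of -0.19. SuHw+CP190 arrays were above BEAF+CP190 arrays at 104 of the 114 (3.72% of all transcripts), 79 of them by at least 2-fold (0.727% of all), with a median of 1.27. In the 25 transcripts on the other side it was more often the CTCF+CP190 arrays that were high. They lay above BEAF+CP190 arrays at 22 of the 25 (2.11% of all), 15 of them by at least 2-fold (0.289% of all), with a median of 1.24. SuHw+CP190 arrays lay below BEAF+CP190 arrays at 14 of the 25 (3.97% of all), 2 of them by at least 2-fold (0.0781% of all), with a median of -0.33. These counts use the arrays that chose the 114 and the 25 and share the BEAF+CP190 arrays, so they describe the lists and test nothing.

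That description did not hold for every transcript. Of the 114, 9 were not called between SuHw+CP190 and BEAF+CP190 arrays and 1 was lower in SuHw+CP190 arrays. FBtr0081747 (-1.53), FBtr0078101 (-0.98) and FBtr0077757 (-0.91) were lower in CTCF+CP190 than in BEAF+CP190 arrays on the log2 scale, while their SuHw+CP190 arrays were not called (limma adjusted p = 0.13, 0.58 and 0.62). Of the 25, FBtr0086519 was -0.05 in CTCF+CP190 and -1.96 in SuHw+CP190 arrays relative to BEAF+CP190 arrays, so there the SuHw+CP190 arrays were the low ones. A further 2 were named after their values were seen, FBtr0084288 as the only one of the 25 called lower in CTCF+CP190 arrays and FBtr0081748 as the only one of the 114 called lower in SuHw+CP190 arrays. FBtr0084288 was at 8.62 in both CTCF+CP190 arrays and at 6.12 and 6.16 in SuHw+CP190 arrays, against 9.26 and 9.30 in BEAF+CP190 arrays. Here both groups lay below BEAF+CP190, the CTCF+CP190 arrays 1.58-fold and the SuHw+CP190 arrays 8.79-fold (limma adjusted p = 2.5e-05 and 6.1e-12). FBtr0081748 was at 5.71 and 5.67 in CTCF+CP190 arrays and 7.07 and 7.33 in SuHw+CP190 arrays, against 7.45 and 7.58 in BEAF+CP190 arrays. It was 3.54-fold lower in CTCF+CP190 arrays than in BEAF+CP190 arrays (limma adjusted p = 7.9e-08) and 1.25-fold lower in SuHw+CP190 arrays (adjusted p = 0.041).

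Some of these transcripts kept a 2-fold gap over all 12 arrays of the second set. Of the 114, 45 had every array with SuHw knockdown above every array without it, and 5 had every array with CTCF knockdown below every other. Of the 25, 10 had every array with CTCF knockdown above every other, and 1 had every array with SuHw knockdown below the rest. Over all 16637 transcripts such gaps numbered the same 45, 5, 10 and 1. A gap of this kind requires a difference of at least 2-fold between the 4 arrays compared here, so these counts describe the lists only.

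The same 2 proteins were also depleted singly, and the means of those 4 arrays did not enter the difference between the double knockdowns. They did help to estimate the spread on which the calls rest, as all 18 arrays were fitted together. Most large differences between CTCF+CP190 and SuHw+CP190 were found there too. Of the 25 transcripts at least 2-fold higher in CTCF+CP190 arrays, all 25 had a higher mean in CTCF than in SuHw arrays, and 23 were called higher, against 9.12% of all transcripts. Of the 114 lower, all 114 had a lower mean in CTCF than in SuHw arrays and 112 were called, against 7.63% of all. At any size, 659 of the 892 (73.9%) were called in the same direction between the single knockdowns, 8 in the opposite direction and 225 not called. Across all transcripts both log2 differences correlated at Pearson's r = 0.74 and Spearman's rho = 0.48. With a single array for each group, the 16 choices gave r from 0.57 to 0.71. These correlations are over 16637 transcripts, which are not independent replicates, and no array is shared between the axes.

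Differences between the single knockdowns were more numerous. In CTCF arrays 1517 transcripts were higher and 1270 lower than in SuHw arrays, 73 (0.439%) and 178 (1.07%) of them by at least 2-fold. The 659 shared calls were therefore 23.6% of the 2787 called between the single knockdowns. That total was 1501 and 1377 without CTCF replicate 1 or 2, 1806 without SuHw replicate 2 and 1286 with only the 4 single knockdown arrays in the fit. SuHw replicates were the least alike of the 5 groups used in tests (root mean square SD 0.148), and without SuHw replicate 1 there were 1687 higher and 1753 lower. For the 73 transcripts at least 2-fold higher in CTCF than in SuHw arrays, the median log2 difference was 0.61 with CP190 knockdown and 1.35 without. Of these 73, 54 were called higher in CTCF+CP190 than in SuHw+CP190 arrays, against 2.02% of all transcripts. For the 178 at least 2-fold lower, the median was -1.06 with CP190 knockdown and -1.54 without. Of the 178, 161 were called lower in CTCF+CP190 arrays, against 3.34% of all. A list picked by size in 1 comparison tends to have a smaller median in another. For the lists picked in the double knockdowns the medians were as large or larger without CP190 knockdown. The 25 had medians of 1.58 with CP190 knockdown and 2.25 without, and the 114 had -1.49 and -1.60. Over all transcripts the differences also spread more widely without CP190 knockdown (SD 0.33) than with it (SD 0.25). The reason for the unequal medians was not tested.

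**Figure D3:**
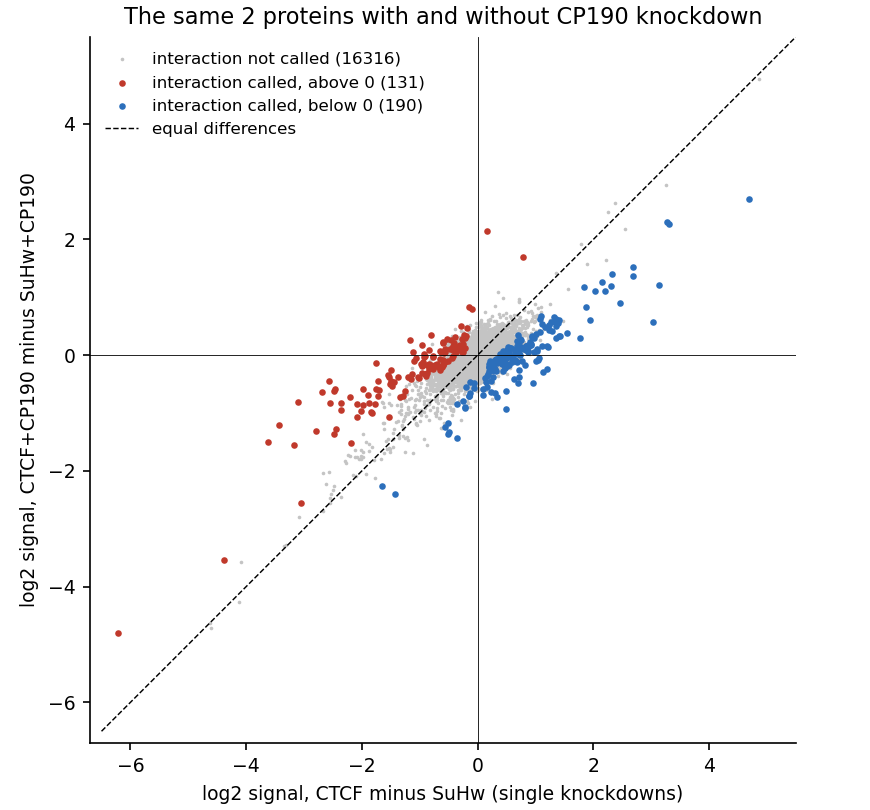
Each point is 1 transcript, placed by CTCF minus SuHw (x axis) and by CTCF+CP190 minus SuHw+CP190 (y axis), both in log2 signal. Points on the dashed line differ equally with and without CP190 knockdown, and the 131 red and 190 blue points have a called interaction.

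The interaction is the difference with CP190 knockdown minus the difference without it. It tests whether the contrast of CTCF with SuHw differed between double and single knockdowns. Depletion of CTCF and SuHw was not checked, so an effect of CP190 loss and unequal depletion cannot be told apart. The interaction was called at 321 transcripts (1.93%), above 0 at 131 (0.787%) and below 0 at 190 (1.14%). By at least 2-fold it was called at 39 (0.234%) and 31 (0.186%). In 173 of the 321 the double knockdowns differed in the same direction as the single ones but by less, in 20 by more, and in 128 the means differed in opposite directions. With transcripts divided into 4 equal parts by mean signal, the 321 fell as 42, 170, 89 and 20 from the lowest part to the brightest. The median absolute log2 difference in the 321 was 0.24 with CP190 knockdown and 0.70 without. Of them 189 were called only between the single knockdowns, 29 only between the double knockdowns, 94 in both in the same direction, 8 in both in opposite directions and 1 in neither. The 321 were 212 and 204 without CTCF+CP190 replicate 1 or 2, 158 and 180 without CTCF replicate 1 or 2, and 104 with only the 8 arrays concerned in the fit. Without SuHw replicate 1 there were 421, with 212 above 0 and 209 below.

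FBtr0074961 had the largest interaction below 0. Its signals were 7.31 and 7.25 in CTCF+CP190 arrays and 6.58 and 6.83 in SuHw+CP190 arrays, and 7.91 and 7.93 in CTCF arrays against 5.0 and 4.76 in SuHw arrays. The difference was thus 1.49-fold between the double knockdowns, against 8.2-fold between the single knockdowns (interaction -2.46, SE 0.15, limma adjusted p = 4.1e-06). SuHw+CP190 arrays were 3.54-fold above SuHw arrays, and CTCF+CP190 arrays 1.55-fold below CTCF arrays. The difference between the double knockdowns lost its call without CTCF+CP190 replicate 1 (0.55, limma adjusted p = 0.06) and without SuHw+CP190 replicate 1 (0.45, adjusted p = 0.087). FBtr0100534 came next, with 6.95 and 6.93 in CTCF+CP190 arrays against 4.36 and 4.14 in SuHw+CP190 arrays, and 9.05 and 8.94 in CTCF arrays against 4.51 and 4.11 in SuHw arrays (interaction -2.0, SE 0.2, limma adjusted p = 0.00012). Here the SuHw knockdowns stayed low with and without CP190 knockdown, while CTCF+CP190 arrays were 4.15-fold below CTCF arrays. These low signals lay under the lower quartile of 5.41 given above, where background may make up part of the signal.

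Above 0 the largest interactions were those of FBtr0076529 and FBtr0081747. FBtr0076529 was at 10.40 and 10.26 in CTCF+CP190 arrays and 11.10 and 11.18 in SuHw+CP190 arrays, and at 8.36 and 8.41 in CTCF arrays against 11.41 and 11.57 in SuHw arrays. The difference was -0.81 between the double knockdowns, against -3.11 between the single ones (interaction 2.30, SE 0.15, limma adjusted p = 4.1e-06), and the CTCF+CP190 arrays lay 3.84-fold above the CTCF arrays. FBtr0081747 reached a similar interaction from the other side. It had 6.15 and 5.93 in CTCF+CP190 arrays and 7.13 and 7.36 in SuHw+CP190 arrays, and 5.89 and 6.07 in CTCF arrays against 9.47 and 9.35 in SuHw arrays (interaction 2.23, SE 0.17, limma adjusted p = 1.6e-05). There the CTCF groups were at like levels, and SuHw+CP190 arrays were 4.47-fold below SuHw arrays. FBtr0081748, described above, resembled it, with 5.74 and 5.71 in CTCF arrays against 9.46 and 9.25 in SuHw arrays (interaction 2.12, SE 0.12). Whether FBtr0081747 and FBtr0081748 belong to 1 gene could not be checked, so they may not be separate observations. FBtr0077686, the transcript with the largest lower signal, also had a called interaction of 1.41 (SE 0.19, limma adjusted p = 0.0018). CTCF+CP190 arrays were 2.4-fold above CTCF arrays, which were at 4.54 and 4.70, while SuHw arrays were at 10.82 and 10.84.

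**Figure D4:**
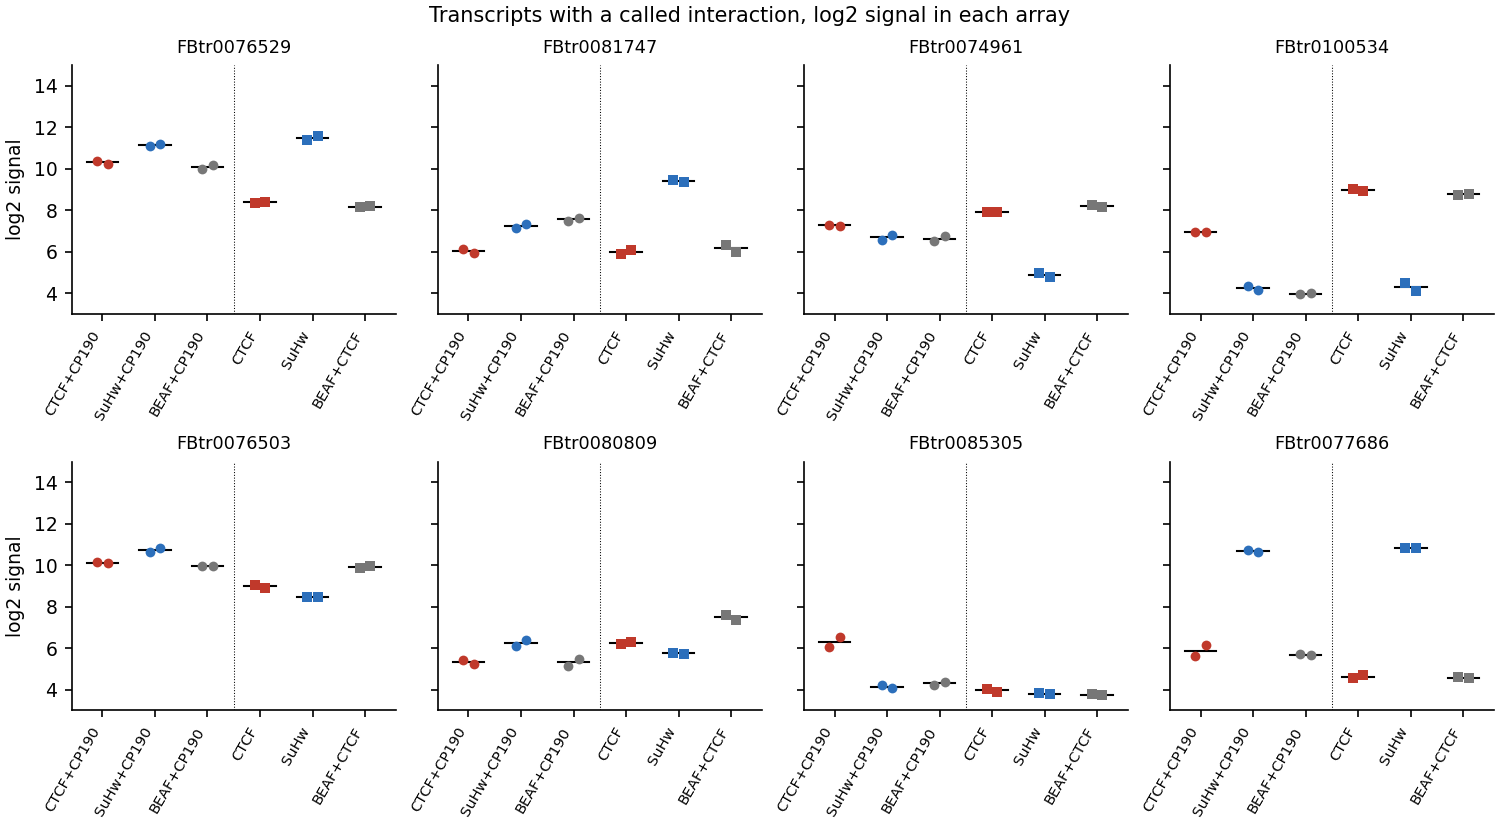
Log2 signal (y axis) in each array of 8 transcripts with a called interaction, with CP190 knockdown left of the dotted line (circles) and without it right of the line (squares). Points are arrays, 2 per group, and bars are group means. The gap between red (CTCF) and blue (SuHw) differs across the dotted line, and in FBtr0076503 and FBtr0080809 it changes direction.

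Of the 8 transcripts called in opposite directions, FBtr0076503 and FBtr0080809 were the 2 whose smaller difference was largest. FBtr0076503 was lower in CTCF+CP190 arrays, at 10.13 and 10.11, than in SuHw+CP190 arrays, at 10.65 and 10.85 (log2 difference -0.62, SE 0.11, limma adjusted p = 0.0049). In the single knockdowns it was higher in CTCF arrays, at 9.04 and 8.92, than in SuHw arrays, at 8.48 and 8.49 (log2 difference 0.49, SE 0.11, limma adjusted p = 0.0099). Without SuHw+CP190 replicate 2 the first of these was -0.52 and lost its call (adjusted p = 0.05, just above the threshold). FBtr0080809 had 5.41 and 5.22 in CTCF+CP190 arrays and 6.09 and 6.40 in SuHw+CP190 arrays (log2 difference -0.93, SE 0.12, limma adjusted p = 0.00025). It had 6.18 and 6.29 in CTCF arrays and 5.76 and 5.73 in SuHw arrays (log2 difference 0.49, SE 0.12, limma adjusted p = 0.013). The CTCF+CP190 mean of FBtr0080809, 5.32, lay under the lower quartile of 5.41, where background may make up part of the signal. Whether the differences of these 2 transcripts between the single knockdowns hold with an array left out was not tested.

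The 4 large differences that were not called between the single knockdowns were named after their values were seen. FBtr0085305 was at 6.05 and 6.54 in CTCF+CP190 arrays and 4.22 and 4.07 in SuHw+CP190 arrays, a 4.44-fold higher signal. Its CTCF arrays were at 4.01 and 3.90 and its SuHw arrays at 3.81 and 3.79, so the 2 CTCF+CP190 arrays were the only ones raised in the second set (interaction 1.99, SE 0.17, limma adjusted p = 4.8e-05). FBtr0273255 was at 6.62 and 6.76 in CTCF+CP190 arrays and 5.35 and 5.86 in SuHw+CP190 arrays (log2 difference 1.08, SE 0.13), with an interaction of 0.73 that did not pass (limma adjusted p = 0.064). That interaction ran from 0.47 to 0.99 with 1 array left out. It passed at 0.73 with quantile normalization and with the trended robust prior. FBtr0073258 was at 5.55 and 5.81 in CTCF+CP190 arrays and 7.11 and 7.14 in SuHw+CP190 arrays (log2 difference -1.44, SE 0.14). Its interaction of -1.09 passed (limma adjusted p = 0.012), but was -0.96 without CTCF+CP190 replicate 1 and then did not (adjusted p = 0.058). It also lost its call with only the groups compared in the fit and with only the 12 arrays of the second set (limma adjusted p = 0.12 and 0.051). FBtr0077757 was at 4.13 and 4.12 in CTCF+CP190 arrays and 5.48 and 5.0 in SuHw+CP190 arrays (log2 difference -1.11, SE 0.18), with an interaction of -0.82 that did not pass (limma adjusted p = 0.16).

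None of the 14 genes that could be named was called between CTCF+CP190 and SuHw+CP190 arrays, against 5.36% of all transcripts, and none had an unadjusted limma p under 0.05. Their log2 differences ran from -0.18 to 0.11, with a median of 0.01 beside 0.02 over all transcripts, and 9 were above 0. Their 95% intervals together spanned -0.41 to 0.26, so differences of 1.5-fold or more lay outside every one of them. Signals of 13 of the 14 were above the median transcript.

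The chromatin genes were close to 0. For kis, a CHD family chromatin remodeller, signals were 12.94 and 12.95 in CTCF+CP190 arrays and 12.98 and 12.89 in SuHw+CP190 arrays (log2 difference 0.01, 95% interval -0.12 to 0.14). For His4r, a histone H4 gene outside the replication-dependent histone cluster, they were 13.76 and 13.77 in CTCF+CP190 arrays and 13.68 and 13.75 in SuHw+CP190 arrays (0.05, -0.12 to 0.21). The histone deacetylase gene HDAC3 was at 0.10 (-0.03 to 0.24), and SuUR, which slows replication of heterochromatin, at -0.07 (-0.22 to 0.08). The GATOR2 complex acts upstream of TORC1, and of its genes mio was at 0.02 (-0.11 to 0.15) and Wdr24 at 0.11 (-0.04 to 0.26). The phosphate transporter gene NaPi-III was at -0.09 (-0.21 to 0.03) and the fatty acid transporter gene Fatp1 at 0.07 (-0.07 to 0.22). Further genes were rdx, which acts in degradation of the Hedgehog pathway factor Ci, at -0.18 (-0.41 to 0.05), and the laminin chain gene LanA at -0.04 (-0.15 to 0.08). The ubiquitin-activating enzyme gene Uba1 was at -0.03 (-0.14 to 0.07), sle, which encodes a nucleolar protein, at 0.02 (-0.10 to 0.14) and the spectrin gene alpha-Spec at 0.04 (-0.08 to 0.16).

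The gene fend gave the difference nearest to 0, with signals of 8.71 and 8.94 in CTCF+CP190 arrays and 8.84 and 8.81 in SuHw+CP190 arrays (95% interval -0.16 to 0.16). Both groups were lower than BEAF+CP190 arrays, with log2 differences of -0.47 for CTCF+CP190 and -0.47 for SuHw+CP190 (SE 0.074 each, limma adjusted p = 0.0023 and 0.0013). Both values use the same BEAF+CP190 arrays, so their likeness follows from the difference near 0 and is no separate observation.

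Between the single knockdowns 5 of the 14 were called, against 16.8% of all transcripts. In CTCF arrays, fend (0.27), kis (0.24), Fatp1 (0.22) and alpha-Spec (0.19) were higher than in SuHw arrays and NaPi-III (-0.21) was lower, with limma adjusted p from 0.015 for kis to 0.049 for Fatp1. Each lost its call without CTCF replicate 1, without CTCF replicate 2 and with only the single knockdowns in the fit, where the differences were 0.19 to 0.30 in size. Without SuHw replicate 2 that of Fatp1 was 0.10, and that of fend lost its call without either SuHw replicate. The interaction was called for none of the 14, and for these 5 its limma adjusted p ran from 0.23 for kis to 0.58 for Fatp1. The data therefore do not show that the contrast of CTCF with SuHw at these genes differed with CP190 knockdown.

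**Figure D5:**
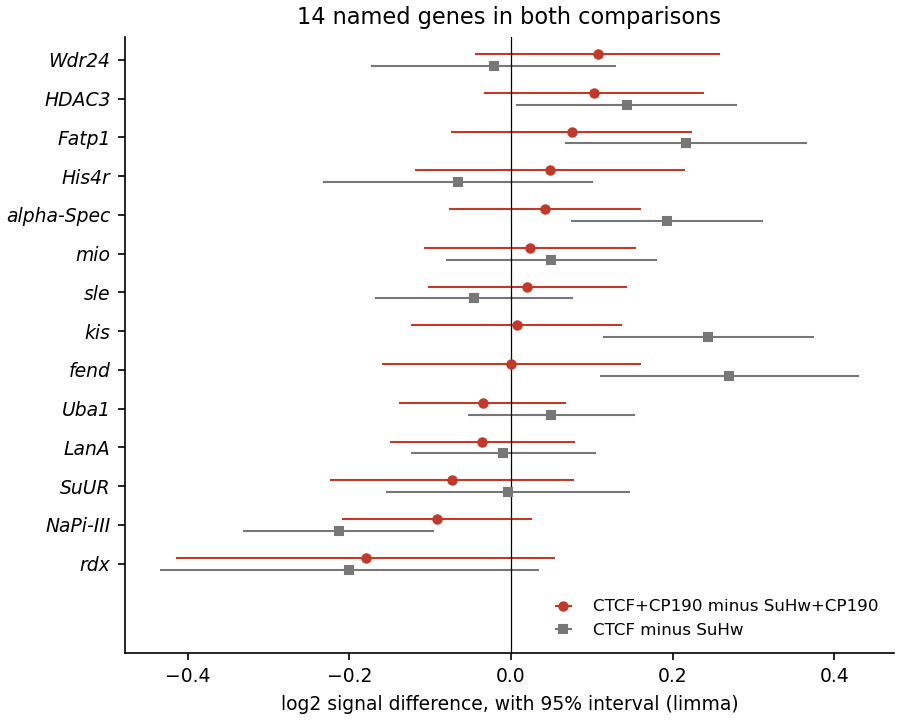
Log2 differences (x axis) of the 14 named genes (y axis) between CTCF+CP190 and SuHw+CP190 arrays (red circles) and between CTCF and SuHw arrays (grey squares), with 95% intervals from limma. All red intervals include 0.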

How the data were processed

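The deposited table holds log2 signals per transcript for 18 arrays, made by the authors with RMA and Partek, which are named in the submitters' processing notes without versions. The sources used here do not say whether all arrays went through RMA together. A change shared by most transcripts would be lost where a method makes signal distributions equal, as RMA usually does. Values were used as deposited. In limma 3.58.1 (R 4.3.3), lmFit and eBayes fitted the 9 group means to the 18 arrays together, which left 9 residual and 3.68 prior degrees of freedom, and the fit was checked on simulated data. Two-sided p-values were adjusted by Benjamini-Hochberg over all 16637 transcripts. Array number limits the precision.

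Identifiers were matched through the synonyms of a RefSeq gene table (Release 6 assembly): 16 to 1 symbol, of which 2 are annotation numbers only (CG16974 and CG31178, at 0.02 and -0.29 between CTCF+CP190 and SuHw+CP190, not called; the second had an unadjusted p of 0.027 and an adjusted p of 0.23), 28 to several and 16593 to none. Of listed genes, 0 of 12 insulator proteins and 0 of 13 cell type markers matched. Matched were 2 of 5 GATOR2, 4 of 4 chromatin and 2 of 2 transporter genes, none of them called, with median differences of 0.07, 0.03 and -0.0083. Transcripts were named by rule. These were the 2 largest called each way, with arrays not overlapping, over all transcripts and over those above the median signal. Added were the 2 largest interactions each way and every gene with a symbol. Of the 8 called in opposite directions, the 2 whose smaller difference was largest were also named. Exceptions are stated. The comparison and the lists were chosen with earlier results of these data known.

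Replicate numbers were not taken to pair the samples: deviations from group means correlated at -0.11 between CTCF+CP190 and SuHw+CP190 and at 0.04 between CTCF and SuHw. Over all 36 pairs of groups these correlations ran from -0.20 to 0.45, and 10 were above 0.1. Alternatives were other sets of groups in the fit, quantile normalization, median centring, a signal filter, a trended robust prior, a replicate block and leaving out each array.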

Additional observations from a re-analysis of the deposited data

Results flagged for a closer look

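The contrast of CTCF with SuHw was called different between double and single knockdowns at 321 transcripts (1.93% of those tested). The test was of the difference itself (the interaction, limma with Benjamini-Hochberg). With only the groups compared in the fit the count was 104. Depletion was not checked, so an effect of CP190 loss and unequal depletion cannot be told apart. Among the transcripts named here, the interaction was above 0 for FBtr0076529 (2.30), FBtr0081747 (2.23), FBtr0081748 (2.12), FBtr0085305 (1.99), FBtr0077686 (1.41), FBtr0071502 (0.50) and FBtr0078101 (0.47). It was below 0 for FBtr0074961 (-2.46), FBtr0100534 (-2.0), FBtr0080809 (-1.42), FBtr0076503 (-1.12) and FBtr0073258 (-1.09). Those of FBtr0071502, FBtr0078101 and FBtr0073258 lost their calls with only the groups compared in the fit (limma adjusted p = 0.091, 0.15 and 0.12). With 1 array left out, FBtr0071502 lost its call in 7 of 8 fits, FBtr0078101 in 7 of 8 and FBtr0073258 in 1 of 8. With only the 12 arrays of the second set FBtr0078101 and FBtr0073258 lost theirs (adjusted p = 0.062 and 0.051), and FBtr0078101 also after median centring (0.44, adjusted p = 0.059).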

How the results depend on the processing

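With only the groups compared in the fit, 477 transcripts were called between CTCF+CP190 and SuHw+CP190 arrays, 1286 between CTCF and SuHw arrays and 104 in the interaction. Fewer arrays then estimate the spread, and what lowered the counts was not tested. With only the 3 double knockdowns that include CP190, an alternative chosen after the data were examined, the first count was 582. Testing only transcripts above the median signal left 363, 1443 and 167 calls by construction, of which 4, 16 and 5 were higher and 20, 31 and 5 lower by at least 2-fold. Leaving out 1 array gave 474 to 777, 1377 to 3440 and 158 to 421 calls. Of calls of at least 2-fold between the double knockdowns, 97.1% were also called in the same direction between the single ones. The rest had the same direction there but were not called. The other alternatives, among them quantile normalization, median centring and the 12 arrays of the second set, stayed within 1.5 times of each count. The replicate block gave 922, 2803 and 335 calls, and 921 in the first with the SuHw+CP190 numbers crossed, an alternative added later. Under the block the FBtr0078101 interaction (0.47, limma adjusted p = 0.061) and the difference of Fatp1 between the single knockdowns (0.22, adjusted p = 0.059) lost their calls. Some values near 0 changed sign, with no call either way. For fend the difference between the double knockdowns was -0.0041 after median centring and ran from -0.11 to 0.11 with 1 array left out. The same ranges were -0.036 to 0.051 for kis, -0.0031 to 0.0499 for mio, -0.0026 to 0.088 for alpha-Spec, -0.033 to 0.073 for sle and -0.036 to 0.075 for CG16974. For interactions they were -0.27 to 0.0563 for FBtr0088597 and -0.18 to 0.0072 for FBtr0085456. That of FBtr0076878 was -0.0932 without SuHw replicate 2 and 0.60, and called, without SuHw replicate 1.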
